A study of Mus musculus with 2 samples.

Results

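Club cells are the dome-shaped secretory cells that line the conducting airways. Here they were 109 of the 15453 deposited cells, 40 from the control mouse and 69 from the fibrosis mouse, chosen from their transcripts. Each had at most 10% of its unique molecular identifiers (UMIs, counted transcript molecules) on mitochondrial genes, at least 2% on Scgb1a1, at least 5 Cyp2f2 UMIs and no Ptprc UMI. Each also had fewer than 4 of 6 ciliated-cell genes (Foxj1, Ccdc153, Tmem212, Dynlrb2, Sec14l3 and Ccdc113). The suspension came from whole lungs of C57Bl/6J male mice aged 3 months, taken on day 14 after 100 µg of TiO2 (titanium dioxide) or crocidolite asbestos had been given into the trachea. Each library was 1 mouse, 1 called control and the other fibrosis by its label. The labels give both particles for each mouse and leave the assignment unstated, and no untreated mouse was analysed here. A group of 1 mouse leaves no spread between animals to set a difference against, so no test between the groups was possible, and every 95% interval covers counting error only.

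Club cells secrete secretoglobins, of which Scgb1a1 is the most abundant, and they metabolise inhaled chemicals with cytochrome P450 enzymes such as Cyp2f2. They divide to renew themselves and can give rise to ciliated cells and, under the type 2 cytokines interleukin-4 and interleukin-13, to mucus-producing goblet cells. Those cytokines act through the transcription factor STAT6, and in airway epithelium their known targets include the secreted proteins Retnla, Chil3, Chil4 and Clca1 and the mucin Muc5ac.

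The genes used for the choice are given as a description. Scgb1a1 made up a median of 51.5% of UMIs in a control member (range 4.24% to 75.7%) and 41.7% in a fibrosis member (2.39% to 71.1%). The cells nearest the 2% limit had 4.24% and 4.67% inside and 1.54% and 1.21% outside in control, and 2.39% and 2.40% inside and 1.93% and 0.607% outside in fibrosis. Requiring Ptprc, the leukocyte gene, to be at 0 removed 24 control and 55 fibrosis cells that had passed the earlier steps, of which 18 and 39 held a single Ptprc UMI. The ciliated-cell genes then removed 39 and 52 cells, of which 31 and 43 held all 6 genes. Those cells had a median Scgb1a1 share of 43.6% and 32.3% and median totals of 27811 and 24744 UMIs, against 11019.5 and 10321 in the members. The members held 21.5% and 26.5% of their library's Scgb1a1 UMIs.

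The label fitted the markers that the choice did not use. Scgb3a2, a second airway secretoglobin, had UMIs in 36 of 40 control and 60 of 69 fibrosis members. Cbr2, a carbonyl reductase of club cells, had UMIs in all 40 and all 69. Cbr2 does not set club cells apart from ciliated cells, which had 7259 and 5872 CPM of it even without those rich in Scgb1a1, against 7954 and 5076 CPM in members. Scgb3a2 was at 102 and 84.1 CPM in those ciliated cells and at 38.9 and 33.2 CPM in AT2 cells, against 8151 and 8348 CPM in members. The AT2 and B cells were chosen with Scgb1a1 under 2% of UMIs, which leaves out cells rich in that airway transcript. With the cells rich in Scgb1a1 kept, ciliated cells had 6232 and 4120.5 CPM of Scgb3a2. They then held 49.3% and 30.5% of their library's Scgb3a2 UMIs, against 20.1% and 32.1% in members. B cells, which should lack these genes, carried free airway RNA in both libraries: their summed Scgb1a1 was 5674 and 3698 CPM (the UMIs of a gene per 1000000 UMIs of the summed cells). Against that background, Scgb3a2 was above the 99th percentile of B cells in 32 of 40 and 51 of 69 members, and Cbr2 in 40 of 40 and 66 of 69. The B cells were shallower, with medians of 2475 and 2754 UMIs. Markers of other types varied. Krt5, which marks basal cells, was at 0 in both libraries. The 6 basal cell markers together came to 0 CPM in control members, against 9.11 CPM in control B cells. In fibrosis members their sum was above 0 and above the 4.11 CPM of fibrosis B cells, although the median member had none. Summed B cell markers came to 82.4 and 52.3 CPM in members against 5401 and 4363 CPM in B cells. The 12 ciliated-cell markers summed to 273 and 250 CPM and those of AT1 cells, the flat cells of the alveoli, to 470 and 1087 CPM. Macrophage markers came to 3122 and 3422 CPM in members, below their 7689 and 6777 CPM in B cells. Markers of AT2 cells, which make surfactant, came to 18586 and 16025 CPM, above B cells at 7149.7 and 5520.1 CPM. They were unevenly spread, with 15.5 and 22.8 UMIs per 10000 in the median member and 2856 and 3166 in the highest. The libraries shared 89 cell barcodes, 1 of which belonged to members in both.

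**Figure D1:**
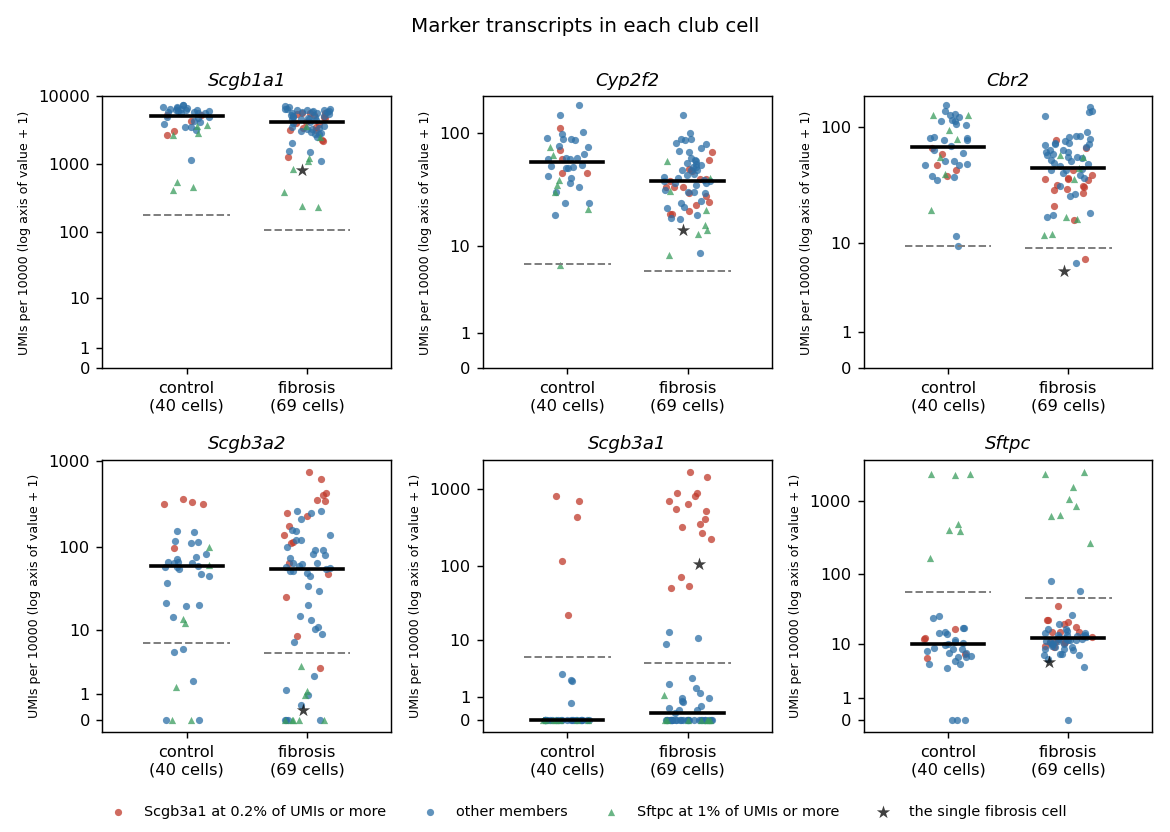
Level of 6 marker genes in each member, as UMIs per 10000 UMIs of the cell on a log axis of the value + 1, by library. Points are cells, coloured by the sets described in the text. Black bars are medians, and dashed grey bars are the 99th percentile of B cells in the same library. Scgb3a1 and Sftpc each separate a few cells from the rest.

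The share of club cells was 0.498% (95% exact Clopper-Pearson interval 0.356% to 0.678%, 40 of 8026 cells that passed the mitochondrial limit) for control and 0.994% (0.774% to 1.26%, 69 of 6945) for fibrosis. Of Ptprc-negative cells the shares were 1.38% (0.991% to 1.88%) and 2.31% (1.80% to 2.91%). By similar rules, ciliated cells were 1.38% and 1.66% of cells, and AT2 cells were 11.7% and 22.0%. How many cells of a type the digestion released cannot be told apart from how many the lung held.

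The 40 control members summed to 497733 UMIs and the 69 fibrosis members to 937013 UMIs. For each gene the ratio of summed CPM, fibrosis over control, was taken on the log2 scale with 0.5 UMI added to each sum. A gene was called at a 2-fold difference among the 4346 genes with at least 20 UMIs over both libraries. By this rule 518 genes (11.9%) were higher and 78 (1.79%) lower in fibrosis, and the median gene stood at 0.24. Relative to that median, 338 genes (7.78%) were higher and 171 (3.93%) lower. Several extremes moved alike in unrelated cells: AY036118 was higher by 4.59 in club cells, 3.67 in ciliated cells, 2.94 in AT2 cells and 4.37 in B cells, and the ribosomal gene copy Rps27rt was lower, at -1.85, -1.60, -1.75 and -1.83.

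Genes of the type 2 cytokine response stood highest. Of 11 list genes with enough UMIs, 9 were called higher and none lower, with a median log2 ratio of 3.44 against 0.24 for all tested genes. Of these, Clca1, Chil4, Serpinb2, Muc5ac, Agr2 and Fcgbp had 3 UMIs or fewer in the control and passed the UMI minimum only through the fibrosis members, so the count describes the genes that passed and not the list. With a minimum of 1 UMI the list had 26 genes and a median of 2.35. The median was 3.34 when the 3 genes at 0 in the control (Clca1, Chil4 and Serpinb2) were set to the ratio against a floor of 3 UMIs over the control members. The 2 genes not called were the receptor chain Il13ra1 (0.12) and Stat6 (0.45). Serpinb2, an inhibitor of plasminogen activation, had all its 28 UMIs in 1 cell. Without that cell 8 of 10 genes were called, with a median of 3.36.

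Retnla (chr16:48842551-48844461 on GRCm38) encodes a small secreted protein of the resistin-like family. It had 235 CPM (117 UMIs) in the control and 19652 CPM (18414 UMIs) in the fibrosis members, a log2 ratio of 6.38 (95% interval 6.12 to 6.66). Among the control cells the lowest and the median cell had none, and the highest had 28.9 UMIs per 10000. Among the fibrosis cells the lowest had none, the median 86.1 and the highest 809, so that the fibrosis median lay above every control cell. Retnla was detected in 13 of 40 control and 64 of 69 fibrosis members. Thinned to 1500 UMIs per cell, the shares were 15.0% and 79.7% in members and 0.536% and 24.9% in B cells. In the fibrosis library 48 of 69 members (69.6%) exceeded the 99th percentile of B cells, which was 12.6 per 10000.

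Retnla was not particular to club cells. Its ratio was 5.41 in ciliated, 6.71 in AT2 and 6.23 in B cells. The levels differed, with 19652 CPM in fibrosis club cells, 2373 CPM in AT2 cells and 220 CPM in B cells. The members held 16.8% of the fibrosis library's Retnla UMIs and 5.45% of the control's. Leaving out the ciliated cells that were rich in Scgb1a1 lowered the ciliated level in fibrosis from 14003 to 238 CPM.

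Clca1 (chr3:145003817-145032776), a secreted protein of mucus, had no UMI in the 40 control members, which allows a share of cells with a UMI of up to 7.50% and says nothing of expression below detection. In fibrosis it had 702 UMIs (749 CPM) in 16 of 69 members, 124-fold the control floor given above. The top cell held 27.8% of these UMIs. The chitinase-like Chil4 went from 0 UMIs to 78 UMIs in 10 cells (83.2 CPM, 13.8-fold the same floor). Its near-identical neighbour Chil3 went from 34.2 to 213 CPM (2.61, 1.93 to 3.45). Reads of these neighbours and of the resistin-like genes may have been assigned to a related copy, so their split is uncertain. Chil3 is also an abundant macrophage transcript, and it had UMIs in 42.3% of thinned fibrosis B cells against 26.1% of thinned members.

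The acidic chitinase Chia1 went from 48.2 to 534 CPM (3.44, 2.88 to 4.12), with UMIs in 6 of 40 and 28 of 69 members. Agr2, which folds mucins in the endoplasmic reticulum, had 2 and 74 UMIs (3.98, 2.39 to 7.37). A single fibrosis cell held 29 of these 74, and the other fibrosis members had 45. Fcgbp, a mucus protein, had 3 and 53 (3.02, 1.60 to 5.55). The mucin Muc5ac had 2 UMIs in 1 control cell and 47 UMIs in 18 fibrosis cells (3.34, 1.71 to 6.73). Its library total in fibrosis was 101 UMIs, of which the members held 46.5%. These ratios rest on few control molecules, which the wide intervals show. Spdef and Foxa3, transcription factors of goblet cells, had 1 and 0 UMIs in the control and 8 and 5 in fibrosis, too few to be tested.

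**Figure D2:**
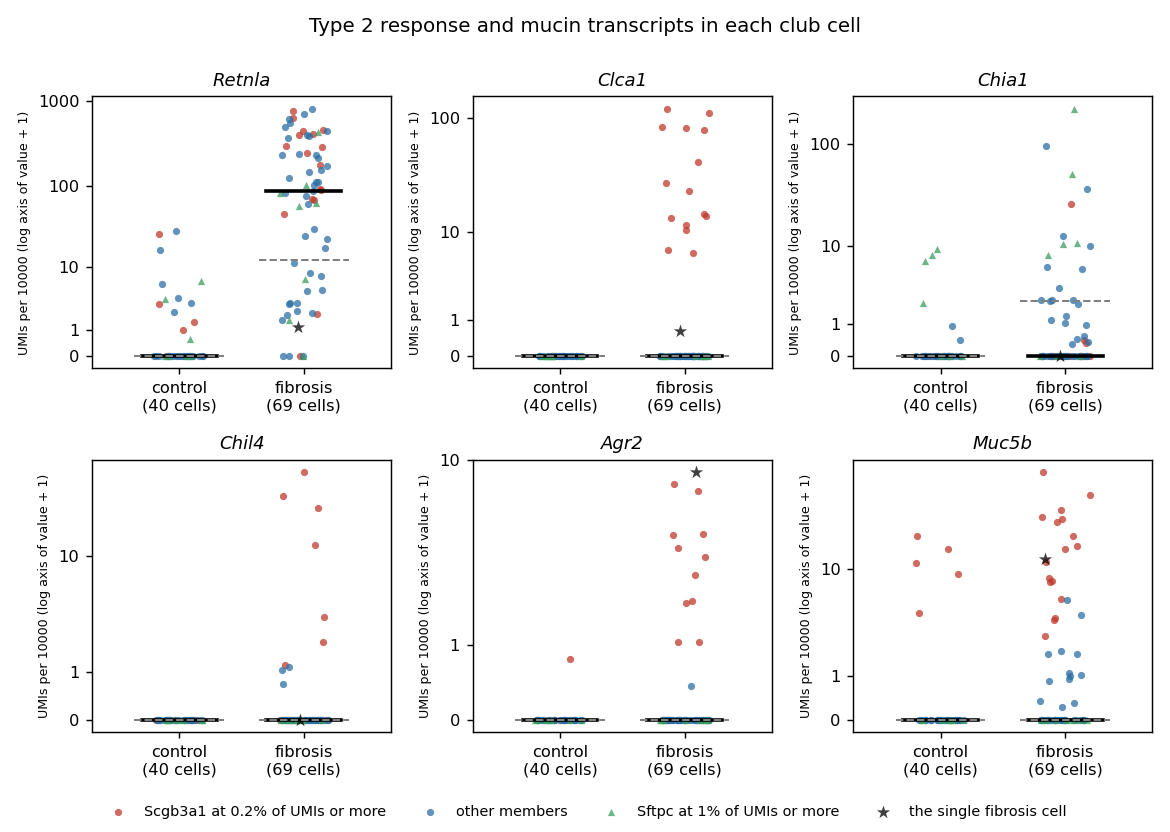
Level of 6 type 2 response and mucin genes in each member, as UMIs per 10000 UMIs of the cell on a log axis of the value + 1, by library, with medians in black and the 99th percentile of B cells as dashed grey bars. Retnla exceeds the B-cell percentile in 48 of 69 fibrosis members, in each set but the single cell, while Clca1 and most Muc5b lie in the members with Scgb3a1 at 0.2% of UMIs or more.

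The sequences before the start of 3 of these genes are shown because they hold the spaced repeat that STAT factors bind. Each is the GRCm38.p6 stretch from 250 to 61 bases before the RefSeq gene start, written 5′ to 3′ on the gene's strand with the match in capitals. Retnla lies at chr16:48842359-48842548 on the plus strand, Chil4 at chr3:106219540-106219729 and Chil3 at chr3:106167625-106167814 on the minus strand.
Retnla: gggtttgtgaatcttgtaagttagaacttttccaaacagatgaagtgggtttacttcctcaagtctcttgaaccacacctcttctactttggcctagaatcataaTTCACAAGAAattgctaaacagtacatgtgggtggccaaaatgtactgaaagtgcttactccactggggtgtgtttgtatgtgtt
Chil4: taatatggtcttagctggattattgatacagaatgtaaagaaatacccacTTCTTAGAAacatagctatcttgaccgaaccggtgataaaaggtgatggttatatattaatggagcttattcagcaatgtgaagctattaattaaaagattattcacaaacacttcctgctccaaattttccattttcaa
Chil3: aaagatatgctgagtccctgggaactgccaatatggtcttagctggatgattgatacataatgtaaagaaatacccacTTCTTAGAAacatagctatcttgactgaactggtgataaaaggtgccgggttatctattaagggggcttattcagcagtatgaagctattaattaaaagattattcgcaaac
The Retnla stretch holds TTCNNNNGAA, the spacing that STAT6 prefers, 145 bases before the RefSeq start. The Chil4 and Chil3 stretches hold TTCNNNGAA, 200 and 172 bases before their RefSeq starts. The gene spans given in the text came from GENCODE, and the RefSeq start of Retnla lies inside its span. Both motifs read the same on both strands. Of 32851 windows of this length, 4.54% held TTCNNNNGAA, 5.51% TTCNNNGAA and 9.77% either. Of the 9 called type 2 genes 7 had a window, and 4 of these held either motif, the fourth being Serpinb2. Counted by window, as in the shares above, 4 of 8 held either motif, because Serpinb2 had a window with it and another without. The secretoglobin Scgb3a1, which was not called, also held TTCNNNGAA, 194 bases before its start. A match is a description of letters and says nothing of binding in these cells.

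Secretoglobins and other airway secretory genes moved less. Of 24 tested genes 1 was called higher and 3 lower, with a median of 0.14, against 11.9% and 1.79% of all tested genes. Scgb1a1, used in the choice and given as a description, was at 518750 and 424917 CPM. It was also lower in fibrosis in B cells, at 5674 and 3698 CPM, and in ciliated cells without those rich in it, at 8522 and 5411 CPM. Scgb3a2 was level at 8151 and 8348 CPM (0.03, -0.02 to 0.09). The called genes on the low side were Scgb1c1, a minor secretoglobin (293 to 101 CPM, -1.53, -1.92 to -1.15), Pon1, the lactone-hydrolysing paraoxonase (327 to 145 CPM, -1.17, -1.51 to -0.84), and Bpifa1, an antimicrobial airway protein (-1.84). A single cell held 97.3% of the control's Bpifa1 UMIs, and without each library's highest cell the ratio was 2.64. The gel-forming mucin Muc5b (chr7:141839070-141873084) was the gene called higher, from 111 to 377 CPM (1.76, 1.36 to 2.21) and from 5 to 31 cells. Wfdc2, a protease inhibitor, had 3508 and 5668 CPM (0.69), and Hp, haptoglobin, 3512 and 5029 CPM (0.52).

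Of 9 tested mucous cell genes, 5 were called higher and none lower, with a median of 1.76, against 11.9% and 1.79% of all tested genes. Clca1, Agr2, Muc5ac and Fcgbp also belong to the type 2 list, so the lists are not separate evidence. They had 3 UMIs or fewer in the control and passed the UMI minimum only through the fibrosis members. The count thus describes the genes that passed and not the list. Tff2, a trefoil peptide of mucus, missed the limit at 0.99 (0.68 to 1.34), as did Bpifb1, a secreted antimicrobial protein, at 0.94 (0.61 to 1.31). Without the single fibrosis cell described below, 6 of 9 genes were called higher, beside 9.81% of all genes, with a median of 1.64. Tff2 then had 197 and 408 CPM.

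Genes of xenobiotic metabolism stood a little below the rest, with a median of -0.10 over 36 genes against 0.24. Beside 11.9% of all tested genes called higher and 1.79% lower, the list had 5 of 36 called higher and 1 lower. Those on the high side were Gstp1 (2.65, 1.79 to 3.82) and Gsto1 (2.01, 1.77 to 2.26), which handle glutathione conjugates, the thioredoxin reductase Txnrd1 (1.50), and Gclc (1.16) and Gclm (1.11), the subunits of the enzyme that makes glutathione. Gstp1 was also high in AT2 (1.98) and B cells (2.59), and it has close copies in the genome. A single cell held 40.6% of the fibrosis Gsto1 UMIs, and without it the ratio was 1.31. Sult1d1, a sulfotransferase with only 22 and 15 UMIs, was called lower (-1.45, -2.52 to -0.45).

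Intervals lay below 0 for 11 of the 36 genes and above 0 for 7. Cyp2f2, used in the choice and given as a description, was at 5545 and 4296 CPM. Among genes with intervals below 0, Cyp4b1, a cytochrome P450 of the airway, was at 299 and 150 CPM (-0.99, -1.33 to -0.65), and Aox3, an aldehyde oxidase, was at 171 and 99.3 CPM (-0.78, -1.22 to -0.34). The glutathione transferases Gstm1 (-0.82), Gsta3 (-0.53) and Gstm2 (-0.53) and the aldehyde dehydrogenase Aldh2 (-0.60) were on the same side, while Aldh1a1 was level at 1009 and 999 CPM (-0.01, -0.17 to 0.15). In AT2 cells Gstm1 (-0.69) and Gsta3 (-0.68) were low too.

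Of 19 antioxidant genes, 5 were called higher and none lower, with a median of 0.40, against 11.9% and 1.79% of all tested genes. Gclc and Gclm are shared with the list above. The metal-binding metallothioneins Mt1 (66.3 to 248 CPM, 1.88, 1.37 to 2.47) and Mt2 (1 to 97 UMIs, 5.11, 3.18 to 11.01) stood highest, the latter in 12 of 69 members. Gsr, which regenerates glutathione, was at 1.31 (0.65 to 2.09), and Nfe2l2, the regulator of this response, at 0.96 (0.40 to 1.60). The hydrogen peroxide enzymes Cat (-0.74) and Prdx6 (-0.70) and the superoxide dismutase Sod1 (-0.55) were lower with intervals below 0.

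The list of keratins and stress genes seen in injured epithelium had 13 of 15 genes called higher and none lower, with a median of 1.67. One fibrosis cell carried much of this. It held 58.7% of the fibrosis UMIs of S100a6, a calcium-binding protein, and 73.9% of those of Lgals3, a lectin. Without it 10 of 13 genes were called, against 9.81% of all genes higher and 1.91% lower, with a median of 1.19. The simple-epithelium keratins Krt7, Krt8, Krt18 and Krt19 then stood at 1.19, 1.21, 1.07 and 1.19, and S100a6 at 3.26 (2.72 to 3.90). AT1 markers moved the same way, with 4 of 6 tested called higher, and Ager, an AT1 receptor, had 177 and 528 CPM without that cell. Their part in the keratin ratios was not tested. In AT2 cells the ratios of Krt8 (-0.28), Krt19 (-0.22) and S100a6 (-0.26) were on the other side of 0, and in ciliated cells they were 0.23, 0.59 and 2.05.

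That cell had 32824 UMIs, 5856 genes and Scgb1a1 at 8.22%. It held 102 of the 104 fibrosis UMIs of Dcn, a matrix proteoglycan of fibroblasts, 220 of the 231 of Mgp, and all 41 of Krt20. With this cell included, the fibroblast and mesothelial markers summed to 4.02 CPM in control and 170 CPM in fibrosis members. It also had 44 UMIs of the epithelial gene Epcam, 348 of Scgb3a1 and 39 of Muc5b, with Krt5 and Ptprc at 0. It was singled out after its values were seen, and whether it is 1 cell or several in 1 droplet was not tested.

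Of 17 antimicrobial and acute phase genes, 5 were called higher and 1, Bpifa1, lower, with a median of 0.65. Of all tested genes, 11.9% were called higher and 1.79% lower. Ltf, the iron-binding lactoferrin, had 14.1 and 573 CPM (5.25), of which the same cell held 68.5%, and without it the ratio was 3.64 (2.66 to 5.07). With that cell included, the members held 47.0% of the fibrosis library's Ltf UMIs (537 of 1143), and ciliated cells held 32.8%. The other 68 members held 169 of them. Lrg1 (28.1 to 130 CPM, 2.17, 1.41 to 3.12) is a secreted acute phase protein, and Lcn2 (62.3 to 272 CPM, 2.11, 1.59 to 2.72) binds bacterial iron carriers. Lcn2 was not particular to club cells. It had 760 and 2006 CPM in AT2 cells, which held 29.8% and 67.4% of its UMIs in the control and fibrosis libraries. Ciliated cells had 41.3 and 202 CPM, while B cells had 116 and 89.7 CPM. For Lcn2, also an abundant neutrophil transcript, 0 control members and 1 fibrosis member exceeded the 99th percentile of B cells. Thinned to the same depth, 12.5% and 23.2% of members and 8.93% and 7.83% of B cells had a Lcn2 UMI. Reg3g, an antibacterial lectin, was at 1.64 (1.32 to 2.00) in club cells and at 4.82 in ciliated cells.

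Surfactant genes gave 4 of 17 called higher and none lower, with a median of 0.51, against 11.9% and 1.79% of all tested genes. The collectin Sftpd, a surfactant protein that club cells make too, had 866 and 1910.3 CPM (1.14), and Sftpa1 4008 and 7158 CPM (0.84, 0.76 to 0.91). Sftpb was near level (0.20), and Sftpc, an AT2 gene, was at -0.33. Sftpd was above the 99th percentile of B cells in 23 of 40 and 47 of 69 members. Chil1, a chitinase-like protein counted in this list and the antimicrobial one, had 362 and 959 CPM (1.40, 1.18 to 1.65).

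Protein folding and secretion had 1 of 24 genes called, Spcs2 of the signal peptidase (1.05, 0.55 to 1.60), with a median of 0.44. The chaperones Calr (0.92) and Hspa5 (0.83) and the stress-secreted Manf (0.97) had intervals above 0. Chemokines and growth factors had 7 of 12 called and a median of 1.32, against 2 of 8 called higher, 1 lower and a median of 0.34 without the single cell. Among them were Cxcl16 with 2 and 25 UMIs and Vegfa with 3 and 32. The airway identity and Notch list had 7 of 36 called higher and none lower, with a median of 0.18. It held the epithelial regulators Elf3 (1.58) and Cebpa (1.12), the signal-responsive Id1 (2.52) and the receptor Notch1 (1.41), while the Notch target Hes1 was at -0.29 (-0.51 to -0.07). Antigen presentation had 0 of 11 called (median 0.06) and the interferon-stimulated list 1 of 5 (0.29). Ion and water transport had 3 of 16 called (0.43), immediate-early and heat shock genes 3 of 20 (0.30), cell cycle genes 4 of 6 (1.29) and glycolysis and energy 2 of 23 (0.25). Of all tested genes, 11.9% were called higher and 1.79% lower. Without the single cell, the interferon-stimulated list had 0 of 5 called (-0.06) and ion and water transport 2 of 16 (0.38). Immediate-early and heat shock genes then had 1 of 18 (0.15) and cell cycle genes 3 of 6 (0.88), beside 9.81% of all genes called higher.

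**Figure D3:**
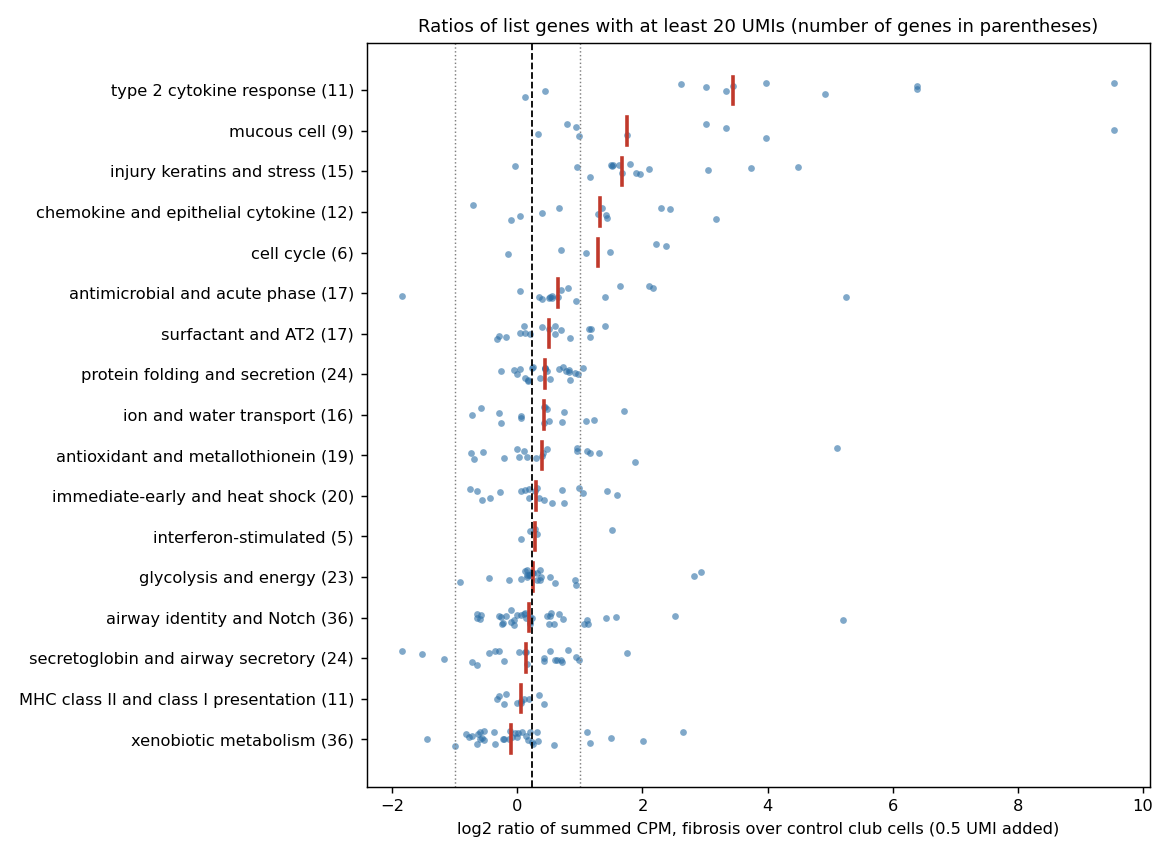
Log2 ratio of summed CPM, fibrosis over control, for each list gene with at least 20 UMIs (points), with the list median (red) and the median of all tested genes at 0.24 (dashed). Dotted lines mark a 2-fold difference. The points of Clca1 and Chil4 rest on the 0.5 UMI added to a control sum of 0. Type 2 response genes have the highest median and xenobiotic metabolism genes the lowest.

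Members differed widely among themselves in Scgb3a1, a secretoglobin of the larger airways. A limit of 0.2% of UMIs, set after the values were seen, separated 5 of 40 control members (12.5%, 4.19% to 26.8%) and, leaving aside the single cell above, which also passed it, 17 of 69 fibrosis members (24.6%, 15.1% to 36.5%). The nearest cells had 0.223% inside and 0.0289% outside in control, and 0.512% and 0.128% in fibrosis. Summed Scgb3a1 was 4862 and 7513 CPM (0.63). A second limit, Sftpc at 1% of UMIs, separated 7 and 8 members. The other 28 control and 43 fibrosis members were low in both. Genes that follow Scgb3a1 across the same cells are given as a description.

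The Scgb3a1-high members held 283 of the 353 fibrosis Muc5b UMIs, in 17 of 17 cells, and all 55 control ones, in 5 of 5 cells. They held 700 of 702 Clca1 UMIs (15 of 17 cells), 75 of 78 of Chil4, 52 of 53 of Fcgbp, 496 of 497 of Reg3g, 362 of 369 of Tff2 and 313 of 320 of Bpifb1. Clca1 and Chil4 had no UMI in the 5 control Scgb3a1-high cells, while Reg3g had 83 of 84 and Bpifa1 631 of 632 control UMIs there. The set was thus present in both libraries with Muc5b, Tff2, Bpifb1 and Reg3g, and Clca1 and Chil4 were seen in it in fibrosis. Scgb3a2 was also higher there, at 29153 and 18513 CPM against 5809.9 and 7263 CPM in the other members. Hp (1208 against 6426 CPM in fibrosis), Sftpb (347 against 2797), Krt7 (24.8 against 182) and Lcn2 (37.2 against 262) were lower there. Across cells, the Spearman correlation of Scgb3a1 with Muc5b was 0.78 in 40 control and 0.73 in 69 fibrosis members, and that of Scgb3a1 with Clca1 was 0.75 in fibrosis. The cells share a library and differ in depth, so these are descriptions.

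**Figure D4:**
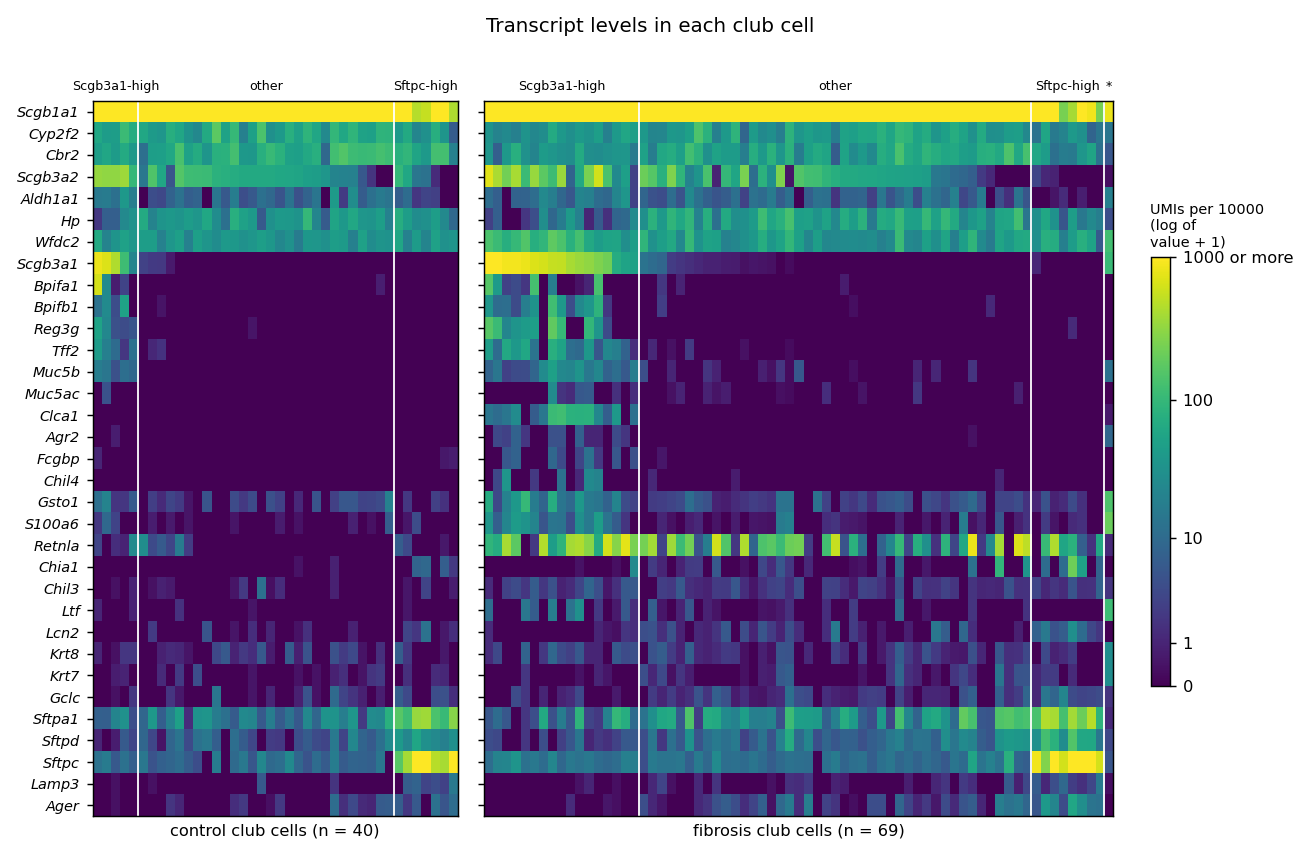
Level of 33 genes in each member, as UMIs per 10000 UMIs on a log colour scale of the value + 1. Columns are cells, ordered within each library by set (Scgb3a1-high, other, Sftpc-high, and * for the single fibrosis cell) and by Scgb3a1, with white lines between sets. Bpifb1, Tff2, Muc5b and Reg3g follow Scgb3a1 in both libraries, Clca1 does so in fibrosis, and Retnla is spread over the 3 larger sets of fibrosis members.

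Retnla was higher in fibrosis in each of the 3 sets. It went from 561 to 32038 CPM in Scgb3a1-high, from 133 to 14848 in Sftpc-high and from 200 to 18173 in the other members, where 40 of 43 fibrosis cells had it. Its Spearman correlation with Scgb3a1 was 0.61 across the 40 control members, most of which had no Retnla UMI, and 0.22 across the 69 fibrosis members. In the latter it was -0.26 with Cyp2f2 and 0.14 with the cell's total UMIs. Chia1 lay in the other sets: it had 326 and 3274 CPM in Sftpc-high members, 5.41 (2 UMIs) and 337 CPM in the others, and 0 and 20 UMIs in Scgb3a1-high members.

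Within the Scgb3a1-high members, 69 of 620 tested genes (11.1%) were called higher and 49 (7.90%) lower. Type 2 genes had 8 of 9 called higher (median 3.72) and keratin and stress genes 8 of 10 (1.73). Clca1, Chil4, Chia1, Fcgbp, Agr2, Muc5ac and Chil3 had 2 UMIs or fewer in the 5 control cells. They passed the UMI minimum only through the fibrosis cells, so the type 2 count describes the genes that passed and not the list. Xenobiotic genes had 3 higher and 5 lower of 21 (-0.44). Muc5b had 907 and 1753 CPM (0.94, 0.53 to 1.39) in these cells, against a ratio of 1.76 over all members. That ratio also includes 39 fibrosis UMIs of the single cell and 31 of the other members, which had 0 in control. The part of the number of cells in this set was not tested. The control side of the set holds only 5 cells.

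In the other 28 and 43 members, 435 of 3051 genes (14.3%) were called higher and 30 (0.983%) lower, and the median gene stood at 0.32. Surfactant genes had 13 of 16 called higher with a median of 1.46. Sftpc-rich cells had been taken out of this set by level. Other alveolar genes were higher in the same cells, Ager with 124 and 432 CPM and Lyz2 with 373 and 986 CPM. B cells also carried more in fibrosis, with 24.1 and 69.9 CPM of Sftpd and 222 and 363 CPM of Sftpa1. The part of these in the surfactant ratios was not tested. Sftpa1 had 1859 and 5459 CPM (1.55, 1.44 to 1.67), Sftpd 639 and 1702 CPM (1.41, 1.21 to 1.62), and Slc34a2, the phosphate carrier of AT2 cells, 78.5 and 311 CPM (1.97, 1.42 to 2.60). Keratin and stress genes had 7 of 12 called (1.06) and antimicrobial genes 7 of 13 (1.12). Muc5b had no UMI in the 28 control cells and 31 UMIs in 13 of 43 fibrosis cells.

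The Sftpc-high members carried AT2 and AT1 transcripts beside club cell ones. Their summed Lyz2, a lysozyme, was 20199 and 27983 CPM, and Ager 607 and 2392 CPM (1.97, 1.48 to 2.50). Scgb1a1 was at a median of 26.8% and 9.86% of UMIs in these cells. Muc5b and Clca1 were at 0 UMIs in all 15. Whether they are single cells with both programs or 2 cells in 1 droplet was not tested. Leaving them out gave 590 genes higher and 43 lower.

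Setting club cells beside 3 other classes, the median log2 ratio of the same gene in ciliated, AT2 and B cells was subtracted. Of 4295 genes 376 (8.75%) were then 2-fold higher and 83 (1.93%) lower. S100a6 stayed high at 4.71, Mt2 at 4.51, Lgals3 at 3.70, Gsto1 at 1.85 and Chia1 at 1.80. These include the single cell, without which the plain ratios in club cells were 3.26 for S100a6, 1.86 for Lgals3 and 1.31 for Gsto1, against 4.48, 3.74 and 2.01 with it. For Chia1, 256 of the 500 fibrosis UMIs lay in the Sftpc-high members. Some of these genes were also higher in fibrosis in ciliated cells, even without those rich in Scgb1a1. There S100a6 had 561 and 1607 CPM, Gsto1 374 and 584 CPM, and Chia1 33.3 and 76.9 CPM. In AT2 cells Chia1 was higher too (194 and 291 CPM), while S100a6 (206 and 172 CPM) and Gsto1 (7.29 and 6.69 CPM) were not. With the other classes subtracted, Retnla stood at 0.15. The type 2 list had a median of 0.33 over the 6 of its 11 genes that could be set beside other classes. Bpifa1 (-3.79), Reg3g (-2.82) and Scgb3a1 (-0.99) were on the other side of 0, with ratios of 5.61, 4.82 and 2.43 in ciliated cells. The ciliated class held 39 control and 52 fibrosis cells rich in Scgb1a1, which in fibrosis held 412 of the class's 413 Bpifa1 UMIs, 4693 of 4736 of Scgb3a1, 25120 of 25219 of Retnla and 313 of 461 of Reg3g.

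**Figure D5:**
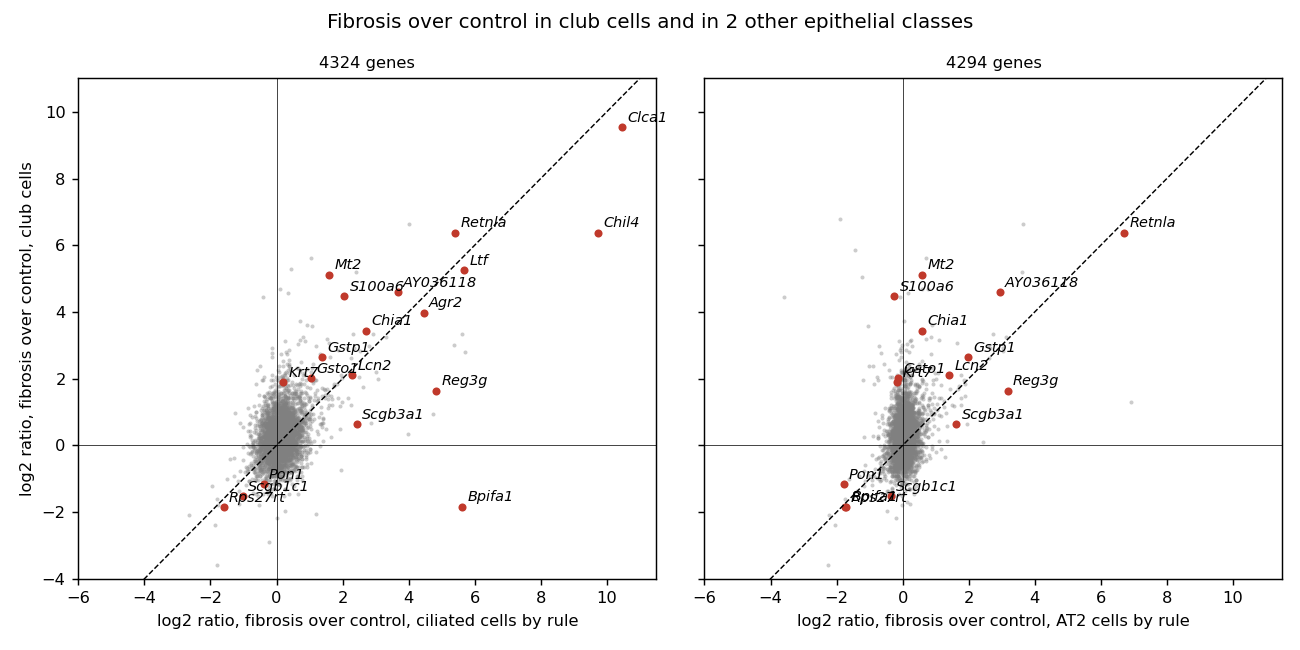
Log2 ratio of fibrosis over control for each gene in club cells (vertical) against ciliated cells (left) and AT2 cells (right), among genes with at least 20 UMIs in both classes. The dashed line marks equal ratios, and red points are genes named in the text. Retnla and Rps27rt lie near the line in both panels, S100a6, Mt2 and Krt7 above it, and Bpifa1 and Reg3g below it on the left.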

How the data were processed

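The authors deposited raw UMI counts per gene and cell for 2 libraries, as whole numbers with cells already selected. Per the submitters' processing notes, bcl2fastq and Cell Ranger 1.3 were used with mm10. The count of each member cell was summed per library and scaled to CPM. Club cell depth ranged from 1509 to 29284 UMIs in control and from 2205 to 42774 in fibrosis. Intervals are 95% exact Poisson, Clopper-Pearson or conditional binomial. Comparison classes were AT2 cells (Sftpc at least 2% of UMIs, with Lamp3), ciliated cells (4 or more of the 6 genes), both without Ptprc, and B cells (Ptprc and at least 2 Cd79a UMIs, with Cd79b or Ms4a1). AT2 and B cells also had Scgb1a1 under 2% of UMIs. In addition, AT2 cells had fewer than 4 of the 6 ciliated-cell genes, and B cells had Sftpc under 2%. Doublets were not removed. Scrublet scores served as an alternative. Members, gene lists and tests were chosen with earlier results of these data known. Named genes were those of the lists with at least 20 UMIs, the 15 highest and lowest ratios, the 10 highest and lowest after subtracting other classes (at least 50 UMIs), the 20 most abundant and the 15 most variable. Others were named after their values were seen. Promoters came from RefSeq on GRCm38.p6. Scripts used numpy 2.4.6, scipy 1.17.1, pandas 2.3.3, scanpy 1.11.5 and matplotlib 3.10.9, and were tested on simulated data.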

Additional observations from a re-analysis of the deposited data

How the results depend on the processing

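No paired analysis was possible because each group is 1 library, and no replicate could be left out for the same reason. The difference in club cell share, 0.495 percentage points of all cells, was 0.924 of Ptprc-negative cells. The count of genes higher in fibrosis (518) was 318 with median-of-ratios size factors, 338 relative to the median gene, 157 at a minimum of 50 UMIs, 2500 at 1 UMI and 69 in Scgb3a1-high members. The count of lower genes (78) was 189, 171, 16, 1308 and 49 in the same order. It was 166 without the 20 most abundant genes in the totals, 262 with the mean of per-cell CPM, 43 without Sftpc-high members and 30 in members low in Scgb3a1 and Sftpc. The type 2 median (3.44) ranged from 0.33, with other classes subtracted and 6 of 11 genes left, to 4.48. The xenobiotic median ranged from -0.44 to 0.02 and the secretory median from -0.14 to 0.35, so neither has a fixed sign. Of 951 gene values under 19 settings, 771 moved little, 176 moved and 4 reversed. Reversal was counted only for genes with a main log2 ratio of at least 1 in size. Smaller ratios that changed sign are not among the 4. The 4 were Bpifa1 without each library's highest cell (2.64), Reg3g (-2.82) and Sftpd (-0.20) with other classes subtracted, and Sult1d1 with the mean of per-cell CPM (0.09). A minimum of 50 UMIs or of 1 UMI could not move a ratio. Those settings gave 47 and 52 of the values that moved little. Leaving out the top-scoring 6% of cells as doublets removed 0 control and 6 fibrosis members. Settings that left out the single fibrosis cell, allowed 1 Ptprc UMI, split the members or subtracted the median gene were chosen after seeing the data. The causes of these shifts were not tested. Depth limits genes with few control molecules, such as Muc5ac, Agr2 and Fcgbp.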
